A study of Mus musculus with 28 samples.

Results

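The 9 genes described here make, break down or bind hyaluronan: the synthases Has1, Has2 and Has3, the breakdown genes Hyal1, Hyal2 and Cemip, the receptor Cd44, and the binding proteins Tnfaip6 and Vcan. They were chosen by name, with earlier results of these libraries in view, from the 29068 genes of a raw count table, and all 9 passed the filter on low counts that left 18107 genes for testing. RNA was sequenced from skin of C57BL/6J mice (MLKL+/+ in the study), 8 weeks old and housed singly. The samples were labelled Day0 and, for wounds healing without treatment, Day3, Day5, Day7, Day10, Day12 and Day14. Each day had 4 libraries, 28 in all. The series text speaks of 5 repeats, and only these 4 a day were analysed here. A round full-thickness wound had been punched in the back skin down to the fascia. Sampling covered all of the wound, its scab and epithelial border included, so every library mixes many cell types. Day0 is the control group in the labels, and whether its skin had been wounded is not given in the sources used here. The methods of the study count from the day of injury as its first day. The labels do not say whether the 4 libraries of a day came from separate mice, so p-values measure the spread between these samples, which may be technical. In bulk tissue, fewer cells of a type and less RNA per cell cannot be told apart.

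Hyaluronan is a long unbranched sugar chain of the extracellular matrix. The HAS enzymes sit in the plasma membrane, join glucuronic acid and N-acetylglucosamine from UDP-sugars and push the growing chain out of the cell. Hyaluronidases and the hyaluronan-depolymerizing protein CEMIP cut the chain, CD44 is its main cell-surface receptor, and proteins such as TSG-6 (from Tnfaip6) and versican (from Vcan) bind it and organise it into a matrix. In skin the chain is abundant in dermis and epidermis, and wound matrix is known to be rich in it.

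Promoter sequences are shown for Has1, Cemip and Tnfaip6, the synthase, breakdown gene and binding protein whose Day3 levels stood furthest above Day14. They come from the RefSeq promoter table of build GRCm38.p6, which held 7 of the 9 genes (all but Has2 and Has3), and each stretch stops before the first annotated exon. It thus ends 17 bases short of the RefSeq start in Has1 and 104 bases short in Tnfaip6, and reaches that start in Cemip. Each runs 5′ to 3′ along the gene's own strand, and positions are counted back from the RefSeq start, with -1 the last base before it.
Has1, chr17:17855206-17855438, minus strand: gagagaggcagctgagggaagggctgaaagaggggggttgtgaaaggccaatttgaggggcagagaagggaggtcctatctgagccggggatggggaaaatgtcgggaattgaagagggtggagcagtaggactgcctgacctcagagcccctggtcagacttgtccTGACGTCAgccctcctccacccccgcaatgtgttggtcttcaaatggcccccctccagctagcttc
Cemip, chr7:84086506-84086755, minus strand: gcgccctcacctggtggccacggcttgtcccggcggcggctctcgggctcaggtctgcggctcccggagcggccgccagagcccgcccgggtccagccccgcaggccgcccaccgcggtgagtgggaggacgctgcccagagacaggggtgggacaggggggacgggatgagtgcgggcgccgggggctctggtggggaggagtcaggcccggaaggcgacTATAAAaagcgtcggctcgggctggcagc
Tnfaip6, chr2:52037863-52038008, plus strand: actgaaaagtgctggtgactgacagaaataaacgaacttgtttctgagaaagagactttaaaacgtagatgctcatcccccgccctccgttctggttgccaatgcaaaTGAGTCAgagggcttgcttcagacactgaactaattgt
Capitals in Has1 mark a match to the cyclic AMP response element TGACGTCA at -83 to -76, a motif held by 1.55% of 32851 promoter windows of the same table. Capitals in Cemip mark a TATA box, TATAAA, at -29 to -24, which 12.4% of those windows held. Capitals in Tnfaip6 mark an AP-1 motif, TGANTCA, at -142 to -136, which 6.75% held. The search also covered the hypoxia core, whose letters are ACGTG, the SMAD element GTCTAGAC, the palindrome TTGCGCAA of C/EBP factors, the CCAAT box and the NF-kappaB motif. A GC box has the letters GGGCGG and was searched as well. Further matches upstream of these starts were CCAAT boxes in Has1 and Tnfaip6 and GC boxes in Cemip and Tnfaip6, motifs held by 33.8% and 32.7% of all windows, and none of the other motifs had a match in the 3 genes. Both strands were searched, the marked motifs overlap no other match, and the letters are a description and not a shown binding site. The cyclic AMP response element was added to the search after the sequences had been seen.

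The libraries held 36706513 to 40655764 counted reads each, with a median of 39499595. Levels are given as FPKM, the deposited reads scaled to gene length and library total, which can be compared between genes; fold changes are log2 ratios from edgeR on the counts, with TMM scaling for composition that FPKM does not have. The Day0 libraries stood apart in their spread: the biological coefficient of variation across genes was 26.5% at Day0 and 5.77% to 10.8% at the other days. The summed FPKM of 7 fibroblast markers was 5140, 11800, 11400 and 3070 in Day0 replicates 1 to 4. For 8 keratinocyte markers it was 3110, 1730, 1850 and 3440, and for 6 skeletal muscle markers 13200, 8470, 8750 and 14000, so replicates 2 and 3 held more of the fibroblast list and less of the other lists than replicates 1 and 4. No defining marker of these lists was at 0 in any library of Day0.

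Most of the 9 genes were above Day0 at the early days, and the excess shrank later. A gene is counted as called where the adjusted p of edgeR's quasi-likelihood test over all genes was under 0.05, and because the genes were proposed with these contrasts known, the counts are read as description only. At Day3, 8 were called higher and 0 lower (all genes: 31.8% higher, 34.8% lower), and the uncalled gene was Hyal1. Day5 also had 8 higher and 0 lower (29.0% and 30.6% of all genes). Day7 had 5 higher and 0 lower (25.6% and 24.8%), Day10 had 6 and 0 (23.5% and 26.9%), and Day12 had 5 and 0 (21.7% and 25.6%). At Day14, 5 were higher and 3, Has1, Has2 and Tnfaip6, were lower (28.2% and 34.5%). Without Day0 replicate 1 or 4, Has2 was also called lower at Day12, and in a fit of only the 8 libraries compared the count higher at Day7 was 3. Under the criteria of the study, a log2 fold change beyond 1.5 in either direction with an unadjusted p under 0.05, the counts were 6 at Day3 (18.9% of all genes), 4 at Day5 (13.9%), 2 at Day7 (9.40%), 2 at Day10 (9.47%), 3 at Day12 (7.39%) and 3 at Day14 (14.0%). The median log2 fold change of the 9 genes was 2.13 at Day3, 1.48 at Day5, 0.45 at Day7, 0.53 at Day10, 0.24 at Day12 and 0.36 at Day14, while the median over all genes tested lay between -0.056 and 0.0024. Without composition scaling the median of all genes moved by 0.14 at Day12 and 0.13 at Day14, and the share of calls that were higher went from 45.8% to 67.4% at Day12 and from 45.0% to 56.2% at Day14.

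**Figure D1:**
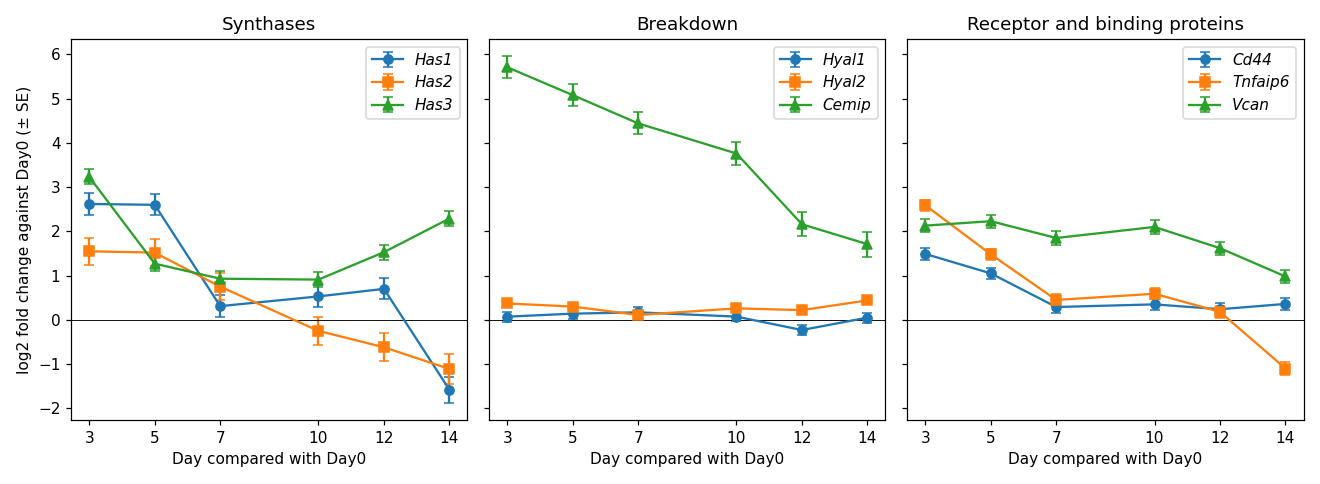
log2 fold change against Day0 (y axis) with its standard error (bars) for each day (x axis) from edgeR on 28 libraries, with synthases, breakdown genes and receptor or binding proteins in separate panels. Cemip starts at 5.71 on Day3 and ends at 1.71 on Day14, Has3 turns up again after Day10, and Hyal1 stays between -0.23 and 0.17.

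The 3 synthases were all higher at Day3 than at Day0, and their later courses parted. Has1 (chr17:17843323-17855205, minus strand, GRCm38), a hyaluronan synthase, read 0.661, 0.26, 0.341 and 0.573 FPKM in Day0 replicates 1 to 4. It read 2.84, 2.65, 2.59 and 2.77 FPKM at Day3 and 3.01, 2.29, 2.76 and 2.74 at Day5, so all 8 early libraries lay above every Day0 library. The log2 fold change was 2.62 ± 0.24 (SE) at Day3 and 2.60 ± 0.24 at Day5, 6.15-fold and 6.05-fold. Has1 then dropped to 0.428 to 0.709 FPKM at Day7, overlapping the Day0 range, stood at 0.741 to 0.882 at Day12 and fell to 0.148, 0.111, 0.253 and 0.149 FPKM at Day14. All Day14 libraries were below all Day0 libraries, 2.99-fold lower in the fit (log2 fold change -1.58 ± 0.29), at 9 to 21 counted reads a library. The Day10 value of 0.53 ± 0.25 was not called, but was without Day0 replicate 1 or 4 or Day10 replicate 4, and also without composition scaling and with limma. The Day12 value of 0.70 ± 0.24 was called, but not when Day0 replicate 2 or 3 was left out, nor in a fit of the 8 libraries compared.

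Has2 (chr15:56665627-56694539, minus strand) encodes the main synthase of dermal fibroblasts. At Day0 it read 0.99, 4.04, 3.80 and 0.603 FPKM, with replicates 2 and 3 about 4 FPKM and replicates 1 and 4 under 1 FPKM, the same libraries that were high and low in the fibroblast list; the part of cell makeup in these levels was not tested. At Day3 it read 6.71, 7.19, 5.77 and 7.04 FPKM and at Day5 6.77, 6.98, 6.32 and 6.36, above every Day0 library. The log2 fold change was 1.55 ± 0.31 at Day3 and 1.52 ± 0.31 at Day5, and leaving out single libraries moved them between 1.29 and 1.95 and between 1.22 and 1.91. From Day5 the mean level went down at each later day, from 6.61 ± 0.319 (SD, n = 4) to 3.99 ± 0.337, 2.07 ± 0.251, 1.70 ± 0.257 and 1.19 ± 0.107 FPKM at Day7, Day10, Day12 and Day14. The ranges of Day10 and Day12 overlapped and those of the other neighbouring days from Day5 on did not. The Day7 call (0.75 ± 0.31) was lost without Day0 replicate 1 or 4, without any 1 of the Day7 libraries, with DESeq2 and in the 8-library fit, so it rests on the setting. At Day12 the value of -0.62 ± 0.32 was not called, yet it was called without Day0 replicate 1 (-0.85) or 4 (-0.92). At Day14 it was called lower (-1.11 ± 0.33), but not when Day0 replicate 2 was left out (-0.68), in the 8-library fit or with limma (-0.44), and the Day14 libraries lay between the high and the low Day0 libraries. Has2 shares 182 exonic bases with the antisense gene Has2os, which had at most 55 reads in a library; whether counting used strand is not given in the sources used here.

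Has3 (chr8:106870242-106884566, plus strand), a synthase known from keratinocytes, had 2 high points. It read 0.806, 0.411, 0.53 and 0.37 FPKM at Day0 and 4.82, 4.90, 4.82 and 4.62 at Day3, a log2 fold change of 3.23 ± 0.17 or 9.39-fold. At Day5 it was down to 1.38, 1.29, 1.47 and 0.825 FPKM, and the ranges of Day5, Day7 and Day10 overlapped. It then read 1.59, 1.78, 1.58 and 1.81 FPKM at Day12 and 2.73, 2.89, 2.98 and 2.70 at Day14, with every Day12 library above every Day10 library and every Day14 library above every Day12 library. Against Day0 the log2 fold change was 0.91 ± 0.17 at Day10, 1.53 ± 0.17 at Day12 and 2.29 ± 0.17 at Day14, the last being 4.88-fold. Has3 was called higher at all 6 days, and leaving out single libraries kept each call. The summed FPKM of 8 hair follicle markers moved over the late days too, with medians of 138 at Day10, 2700 at Day12 and 2840 at Day14, but it was 3.85 at Day3, and 633 at Day7, where Has3 was no higher than at Day10. The sum of 4 wound edge keratins had medians of 294 at Day0, 1220 at Day3, 998 at Day5, 816 at Day7, 776 at Day10, 624 at Day12 and 1050 at Day14. The part of either cell type in the Has3 level was not tested. Has3 shares 352 exonic bases with Chtf8 on the opposite strand.

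**Figure D2:**
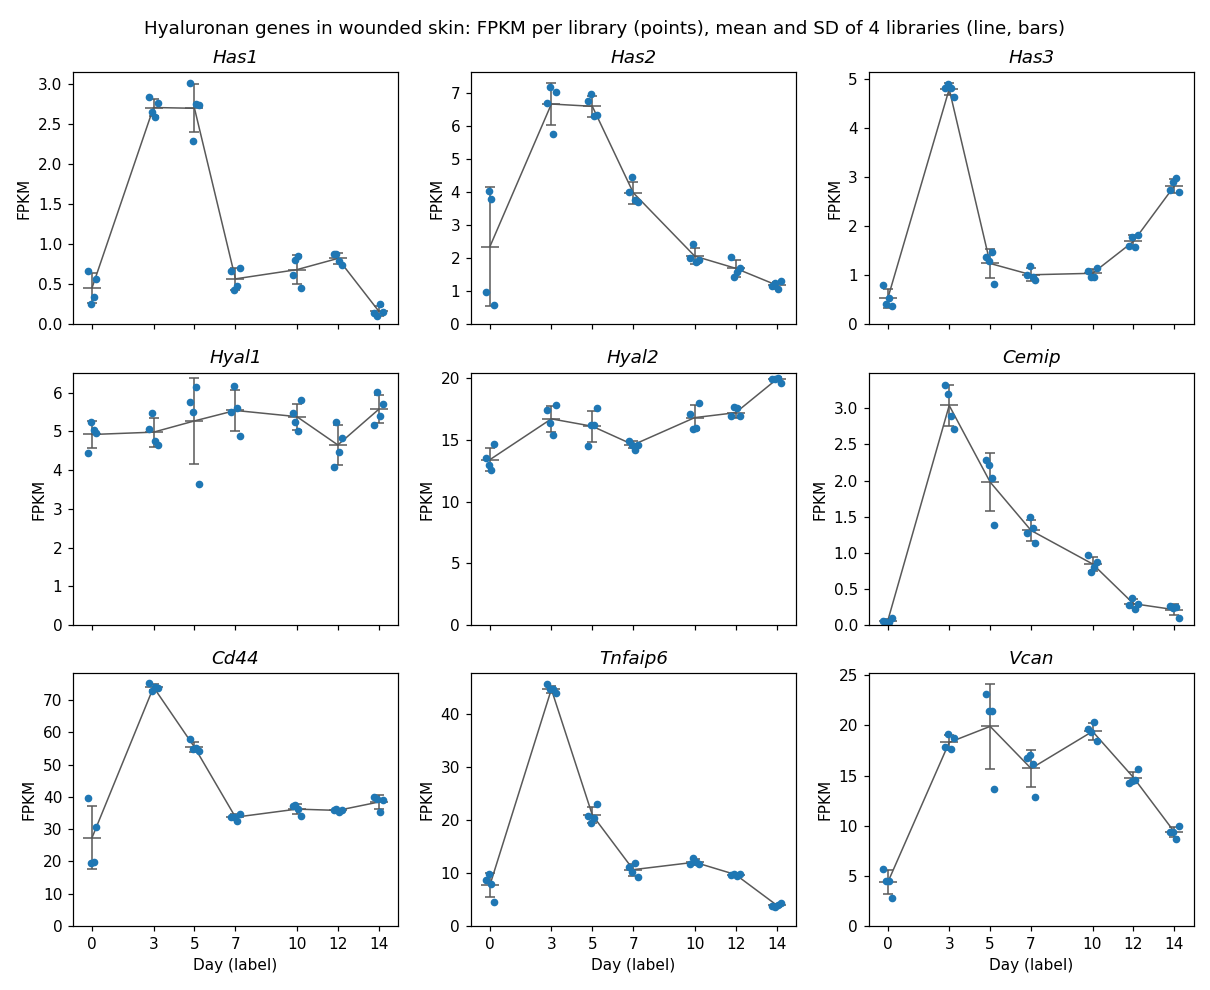
FPKM (y axis, linear, from 0) of each gene against the day in the labels (x axis); points are single libraries, and lines with bars are the mean and SD of 4 libraries. Day3 holds the highest mean of Has1, Has2, Has3, Cemip, Cd44 and Tnfaip6, but in Has1 and Has2 its range overlaps that of Day5. Vcan stays up to Day10, and the Day0 points of Has2 and Cd44 lie widely apart.

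Because FPKM is per length, the makeup of the synthase transcripts can be set out by day, as a description. The summed level of the 3 synthases was 3.35 ± 1.60 FPKM (SD, n = 4) at Day0, 14.2 ± 0.683 at Day3 and 10.5 ± 0.504 at Day5. It then lay at 5.57 ± 0.394 at Day7 and between 3.79 and 4.22 on average from Day10 to Day14. Has2 held 62.7% ± 2.89 of the sum at Day5 and 71.5% ± 1.60 at Day7, its highest day mean. By Day14 Has2 was at 28.6% ± 2.77 and Has1 at 3.94% ± 1.38, while Has3 held 67.5% ± 1.83 against 11.7% ± 2.40 at Day5. At Day12 Has2 and Has3 both averaged 40.2%, with overlapping ranges. The total at Day14 (4.02 to 4.31 FPKM) thus lay within the Day0 range (1.55 to 4.71 FPKM) with a different leading synthase: Has3 made up 8.71% to 32.8% at Day0 and 64.9% to 69.3% at Day14. As shares of raw counts, not divided by length, Has1 was at 8.91% in place of 19.1% at Day3 and at 1.51% at Day14, and Has3 was at 18.5% at Day5, 54.0% at Day12 and 76.3% at Day14. At Day0 the Has2 share itself ran from 39.0% to 85.8% between libraries.

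**Figure D3:**
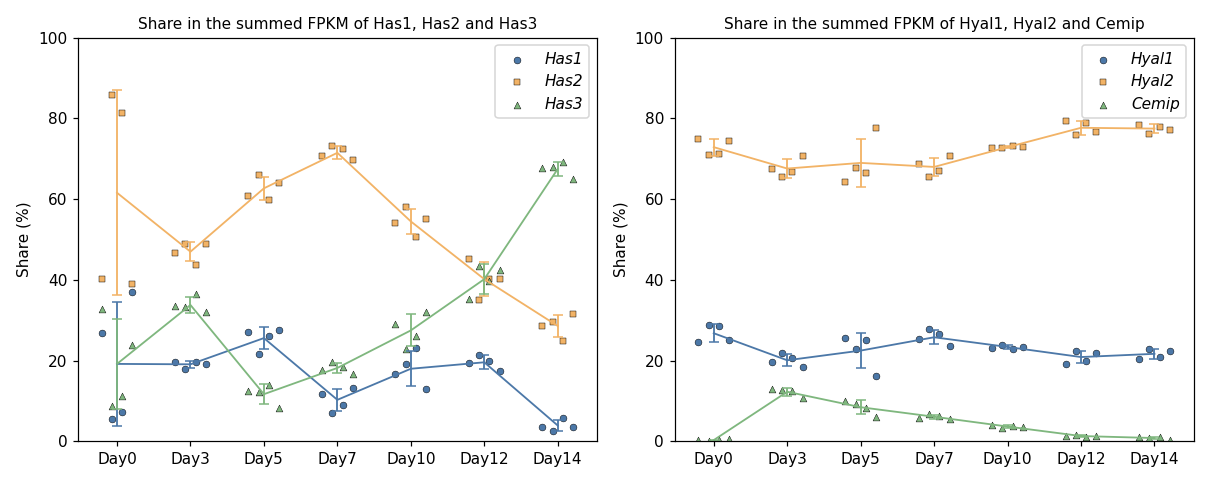
Share of each gene (y axis, percent) in the summed FPKM of the 3 synthases (left) and of the 3 breakdown genes (right) by day (x axis); points are libraries, lines and bars the mean and SD of 4. Has3 goes from 11.7% at Day5 to 67.5% at Day14, and Cemip from 12.3% at Day3 to 0.833% at Day14.

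Among the 3 breakdown genes Cemip had by far the largest fold changes, and those of Hyal1 and Hyal2 were small. Cemip (chr7:83932857-84086502, minus strand) encodes a hyaluronan-binding protein needed for depolymerization by skin fibroblasts. It was barely detected at Day0, at 0.0616, 0.0368, 0.0467 and 0.0968 FPKM or 13 to 31 reads a library. At Day3 it read 3.33, 3.2, 2.90 and 2.71 FPKM, which was 52.4-fold higher (log2 fold change 5.71 ± 0.25). At Day5 it read 2.28, 2.21, 2.04 and 1.39 FPKM, at Day7 1.13 to 1.49, at Day10 0.732 to 0.974 and at Day12 0.229 to 0.378. The log2 fold change went from 5.08 at Day5 to 4.44, 3.76, 2.16 and 1.71 ± 0.28 at Day14, where the 4 libraries, at 0.104 to 0.262 FPKM, were still all above Day0. Its share of the breakdown transcripts was 0.324% ± 0.124 at Day0, 12.3% ± 1.00 at Day3 and 0.833% ± 0.287 at Day14. As shares of raw counts, which favour long transcripts, these were 1.04%, 31.6% and 2.71%.

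Hyal2 (chr9:107567945-107572779, plus strand), a hyaluronidase held at the cell surface by a lipid anchor, was the most abundant breakdown transcript at every day. It read 12.6 to 14.7 FPKM at Day0 and 15.4 to 17.8 at Day3, and the log2 fold change was 0.37 ± 0.060, 0.30 ± 0.060, 0.11 ± 0.060, 0.26 ± 0.060, 0.22 ± 0.060 and 0.44 ± 0.060 at Day3, Day5, Day7, Day10, Day12 and Day14. It was called at all of these but Day7, where it was called only without Day0 replicate 4. Its highest level came at Day14, a mean of 19.9 ± 0.165 FPKM (SD, n = 4) with no library under 19.6, above every library of the other days in FPKM, which has no composition scaling. In the fit with that scaling Day14 differed from Day3 by only 0.064 ± 0.059 (log2), which was not called. Hyal1 (chr9:107576927-107581710, plus strand), the lysosomal hyaluronidase, ran from 3.65 to 6.18 FPKM over all 28 libraries and was called at no day, with log2 fold changes of -0.23 to 0.17 and a standard error of 0.11. Changes of about that size or less could not be shown, and without Day5 replicate 4 the Day5 value (0.27) was called. Hyal1 shares 1920 exonic bases on its own strand with Naa80, which had up to 1030 reads, and 159 with Hyal3, so its reads may be split between them. The summed level of Hyal1, Hyal2 and Cemip moved less than that of the synthases, from 18.4 ± 0.922 FPKM at Day0 to 24.7 ± 1.18 at Day3 and 25.6 ± 0.389 at Day14.

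Of the receptor and binding genes, Cd44 and Tnfaip6 were highest at Day3 and Vcan stayed high for longer. Cd44 (chr2:102811141-102901665, minus strand) encodes the cell-surface receptor and was the most abundant of the 9 genes at each day. It read 39.5, 19.5, 19.8 and 30.7 FPKM at Day0, where replicates 2 and 3, high in Has2, were the low ones. At Day3 it read 75.4, 72.9, 74.1 and 73.8 FPKM and at Day5 57.8, 54.7, 55.0 and 54.1, clear of Day0 and of each other, with log2 fold changes of 1.49 ± 0.13 and 1.05 ± 0.13. From Day7 on all libraries lay between 32.6 and 40.1 FPKM, within the Day0 range but for the highest, and log2 fold changes between 0.24 and 0.36 changed sides of the threshold with the setting. The Day7 value was called without Day0 replicate 1 (0.53) or 4, with limma (0.35) and with a replicate block (0.32), the Day12 value without Day0 replicate 1 (0.49), without composition scaling (0.39) and with limma (0.44), the Day10 call was lost without Day0 replicate 2 or 3 or Day10 replicate 2, and the calls of Day10 and Day14 were lost in the 8-library fit.

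Tnfaip6 (chr2:52038009-52056686, plus strand) encodes TSG-6, a secreted protein that moves heavy chains of inter-alpha-inhibitor onto hyaluronan. It read 8.64, 9.76, 7.92 and 4.46 FPKM at Day0, 45.5, 44.6, 44.7 and 43.8 at Day3 and 20.8, 19.4, 20.3 and 23.0 at Day5. Both days were wholly above Day0, by log2 fold changes of 2.59 ± 0.13 and 1.48 ± 0.13. At Day7 it read 9.28 to 11.9 FPKM, overlapping Day0, and the call (0.45 ± 0.13) was lost in the 8-library fit. At Day10 it read 11.6 to 12.8 FPKM, above every Day0 library, and was called higher (0.59 ± 0.13), also with each single library left out and in the 8-library fit. At Day12 it read 9.37 to 9.86 FPKM, and the uncalled Day12 value (0.18 ± 0.13) was called without Day0 replicate 2 and, at 0.33 and 0.34, without composition scaling and with limma. At Day14 it read 3.82, 3.60, 4.02 and 4.23 FPKM, below every Day0 library, at a log2 fold change of -1.10 ± 0.14.

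Vcan (chr13:89655312-89742509, minus strand) encodes versican, a large proteoglycan whose head domain binds hyaluronan. It read 5.67, 4.5, 4.46 and 2.75 FPKM at Day0 and 17.8, 19.1, 17.6 and 18.7 at Day3. At Day5 it read 23.1, 21.4, 21.4 and 13.7 FPKM, at Day7 12.9 to 17.0, at Day10 18.4 to 20.3, at Day12 14.3 to 15.6 and at Day14 8.70 to 9.97. Every wound library from Day3 on was above every Day0 library. The log2 fold changes were 2.13, 2.23, 1.85, 2.10 and 1.62 at Day3, Day5, Day7, Day10 and Day12, each ± 0.15, and 0.98 ± 0.14 at Day14. Replicate 4 was the lowest library of both Day5 and Day7; it was also lowest in Hyal1, Has3 and Cemip on both days.

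Compared with Day3, which leaves the spread-out Day0 libraries out of the contrast, Day14 had 0 of the 9 genes called higher and 7 called lower (34.2% and 32.8% of all genes), with a median log2 fold change of -1.15 for the 9 and 0.036 for all genes. Has1 was 18.4-fold lower (-4.20 ± 0.27), Cemip 16-fold lower (-4.0 ± 0.22) and Tnfaip6 12.9-fold lower (-3.69 ± 0.14). Has2 followed at -2.67 ± 0.33, Vcan at -1.15 ± 0.14, Cd44 at -1.13 ± 0.13 and Has3 at -0.94 ± 0.15. Hyal1 (-0.022 ± 0.11) and Hyal2 (0.064 ± 0.059) were not called. Without composition scaling the median of all genes moved by 0.18, the share of calls that were higher went from 51.0% to 64.1%, Hyal2 was called higher and Hyal1 turned to 0.16 without a call. This contrast shares its Day3 and Day14 libraries with the contrasts against Day0. Its standard errors and p-values still rest on the estimate of spread shared by all days, Day0 included.

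Marker lists of several cell types moved over the same days. The summed FPKM of 6 neutrophil markers had a median of 37.5 at Day0, 8020 at Day3, 3120 at Day5, 1340 at Day7, 449 at Day10, 27.9 at Day12 and 31.1 at Day14, and that of 8 monocyte and macrophage markers was 2040 at Day0, 3850 at Day3, 4060 at Day5 and 847 at Day14. The fibroblast list had medians of 4570 at Day3, 11000 at Day7, 10700 at Day10 and 3800 at Day14 against a Day0 range of 3070 to 11800. Skeletal muscle markers had medians of 11000 at Day0, 2300 at Day3 and 2420 at Day14. From Day0 to Day3 the lymphatic endothelial list went from 35.6 to 118 and the adipocyte list from 2020 to 4570. Has1, Has2, Has3, Cemip, Cd44 and Tnfaip6 had their highest mean at Day3, where the neutrophil list had its highest median. For Has1 (2.71 and 2.70 FPKM) and Has2 (6.68 and 6.61 FPKM) the Day3 and Day5 means were nearly equal and the ranges overlapped, while the neutrophil list fell. Has2 went down from Day5 to Day7 while the fibroblast list went up from 7890 to 11000. The part of cell makeup in the levels of the 9 genes was not tested.

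Among themselves the 9 genes were most alike in Has1 and Tnfaip6, with a Pearson correlation of log2 CPM of 0.91 over 28 libraries, in Cemip and Vcan (0.87) and in Has2 and Tnfaip6 (0.85). Has1 and Has3 correlated at 0.28, Has2 and Has3 at 0.24, and Hyal1 and Hyal2 at -0.05. These values are descriptions over libraries that share days and carry no test. Out of 11748 other well-expressed genes, the course most like Has1 was that of N4bp1 (0.942), followed by Ncf1 (0.941), a subunit of the phagocyte NADPH oxidase, and Dpep2 (0.938). Has2 was most like Grk5 (0.976), a kinase of G protein-coupled receptors, Sh3bgrl (0.963) and Rap1a (0.953). Has3 was most like Inhbb (0.931), an activin subunit, Heatr1 (0.921) and Plk2 (0.920). Cemip was most like the collagen-modifying enzyme Plod2 (0.970) and the cornified envelope genes Sprr2d (0.968) and Sprr1b (0.967). Cd44 was most like the transcription factor Cebpb (0.970), Tmem51 (0.967) and Gsr (0.961), and Tnfaip6 like Pdpn (0.973), the prostaglandin E synthase Ptges (0.970) and the chemokine Ccl7 (0.964). Vcan was most like Enc1 (0.949), Srxn1 (0.938) and the laminin chain Lamb1 (0.935), Hyal2 like Ran (0.899), Thoc3 (0.892) and Nme1 (0.879), and Hyal1 reached no more than 0.764, with Bahcc1, followed by Sik2 (0.709) and Vps13c (0.695).

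Beside these 9, a list of 43 further genes of the pathway was followed, of which 41 were rows of the table and 37 were tested. Called higher and lower were 18 and 10 of the 37 at Day3, 19 and 5 at Day5, 18 and 6 at Day7, 16 and 11 at Day10, 11 and 8 at Day12, and 6 and 19 at Day14. Of all genes, 31.8% were called higher and 34.8% lower at Day3, 29.0% and 30.6% at Day5, 25.6% and 24.8% at Day7, 23.5% and 26.9% at Day10, 21.7% and 25.6% at Day12, and 28.2% and 34.5% at Day14. The counts of the groups below are small, and nothing particular to a group is read from them. Without Day0 replicate 2 or 3 the genes called lower were 7 at Day10 and 5 at Day12, and without Day7 replicate 2 they were 3 at Day7. In a fit of only the 8 libraries compared they were 6 at Day3, 4 at Day10 and 3 at Day12. With at least 10 counts in every library they were 6 at Day3 and 3 at Day5. The median log2 fold change of the 37 was 0.43 at Day3, 0.59 at Day5, 0.36 at Day7, 0.18 at Day10, 0.019 at Day12 and -0.46 at Day14. The adjusted p-values that follow are from edgeR's quasi-likelihood test over all genes.

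Of the 7 enzymes that supply the UDP-sugars, 5 were called higher and 1 lower at Day3 (all genes: 31.8% and 34.8%), and 0 higher and 5 lower at Day14 (all genes: 28.2% and 34.5%). Uap1, which makes UDP-N-acetylglucosamine, read 18.7, 24.1, 21.9 and 16.4 FPKM at Day0 and 39.0, 41, 41.3 and 44.3 at Day3, a log2 fold change of 1.09 ± 0.075 (adjusted p = 5.32e-13). Gfpt2, an enzyme of the first step of the hexosamine route, read 9.97, 23.6, 23.6 and 6.24 FPKM at Day0, with the same libraries high as for Has2, and 4.98 to 5.80 FPKM at Day14 (-1.68 ± 0.23, adjusted p = 3.91e-07). Ugp2, which makes UDP-glucose, was the gene called lower at Day3 and at Day14 stood at 35.9 to 39.7 FPKM against 61.9 to 79.7 at Day0 (-0.98 ± 0.065, adjusted p = 5.56e-13).

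Of 6 other breakdown genes tested, 3 were called higher and 2 lower at Day3 (31.8% and 34.8% of all genes), and 0 higher and 5 lower at Day14 (28.2% and 34.5%). Gusb, the lysosomal beta-glucuronidase, went from 5.64 to 6.84 FPKM at Day0 to 13.6 to 15 at Day3 (1.28 ± 0.059, adjusted p = 9.80e-17). Cemip2, the membrane relative of Cemip, read 4.12, 2.83, 2.99 and 4.71 FPKM at Day0 and 8.45, 8.27, 8.70 and 8.13 at Day3 (1.25 ± 0.12, adjusted p = 9.22e-10); its Day3 change was far smaller than the 5.71 of Cemip, though its Day0 level was higher. Hexa, a subunit of lysosomal beta-hexosaminidase, was lower at Day14, with 57.1 to 60.8 FPKM against 77.2 to 120 at Day0 (-0.93 ± 0.086, adjusted p = 3.19e-10).

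The 5 other receptors went different ways. Stab1, a scavenger receptor of macrophages and sinusoidal endothelium, rose from 8.23 to 12.5 FPKM at Day0 to 29.0 to 39.3 at Day5 (1.73 ± 0.098, adjusted p = 1.63e-14) and was at 4.68 to 5.5 at Day14. Its relative Stab2, at only 0.137 to 0.298 FPKM at Day0, was called lower at each day, with -2.48 ± 0.35 at Day3 and -1.92 ± 0.33 at Day14. Lyve1, a receptor of lymphatic endothelium and some macrophages, read 14.9, 28.1, 25.3 and 11.1 FPKM at Day0 and 3.35, 4.20, 3.73 and 4.14 at Day14 (-2.49 ± 0.18, adjusted p = 1.80e-12). Hmmr, which is also a spindle protein of dividing cells, was called higher at each day. Its highest mean was at Day14, with 6.43, 6.28, 4.37 and 5.57 FPKM against 1.06 to 2.04 at Day0 (1.73 ± 0.15, adjusted p = 5.77e-11). Day3 was close, at 1.62 ± 0.15 and 4.31 to 4.84 FPKM, a range that overlaps that of Day14.

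The largest folds of the named pathway genes lay among the other binding proteins. Itih4, which belongs to the family of inter-alpha-inhibitor heavy chains, read 0.243, 0.125, 0.161 and 0.878 FPKM at Day0 and 206, 246, 258 and 272 at Day3 (9.53 ± 0.35, adjusted p = 7.34e-19), and it was back at 0.126 to 0.601 FPKM at Day12. Its Day0 values rest on 16 to 102 reads a library, and the fold was 10.55 without Day0 replicate 4 and 9.25 to 9.66 without any other library. The other Itih genes did not share this rise at Day3. Itih2 (-2.6 ± 0.46, at 3 to 10 reads a library) and Itih5 (-0.54 ± 0.11) were called lower, Itih3 (-0.059 ± 0.57) was not called, and Itih1 was not tested. Ptx3, the long pentraxin that takes part in cross-linking hyaluronan with TSG-6, went from 0.879 to 1.16 FPKM to 104 to 121 at Day3 (6.86 ± 0.16, adjusted p = 1.08e-22) and was at 18.8 to 23.4 by Day5. Acan, the aggrecan gene, went the other way in time: at Day3 it read 0.0399 to 0.0496 FPKM, at Day10 1.29 to 1.58 and at Day14 1.67 to 1.81, against 0.149, 0.0032, 0.00988 and 0.0564 at Day0 (4.85 ± 0.39 at Day14, adjusted p = 1.85e-11). Its Day0 values rest on 1 to 45 reads a library, and the Day14 fold was 6.2 without Day0 replicate 1 and 4.5 to 4.95 without any other library. Of the 13 genes of this group tested, 3 were called higher and 4 lower at Day3, where 31.8% and 34.8% of all genes were, and 2 higher and 4 lower at Day14, where 28.2% and 34.5% were.

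Among the proteases known to cut versican, 5 of 6 were called higher and 1 lower at Day3 (31.8% and 34.8% of all genes). Adamts4 went from 0.639 to 1.36 FPKM at Day0 to 14.4 to 15.9 at Day3 (3.89 ± 0.13, adjusted p = 1.47e-19) and was back at 1.09 to 1.22 by Day14, with no call there. Adamts9 read 1.47 to 1.90 FPKM at Day0 and 9.94 to 10.7 at Day3 (2.68 ± 0.10, adjusted p = 1.68e-18) and still 4.28 to 4.99 at Day14. Adamts15 was highest at Day10, at 11.2 to 12.0 FPKM against 1.30 to 2.17 at Day0 (2.61 ± 0.10, adjusted p = 2.09e-17), where the mean of Vcan was 19.4 ± 0.817 FPKM (SD, n = 4).

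**Figure D4:**
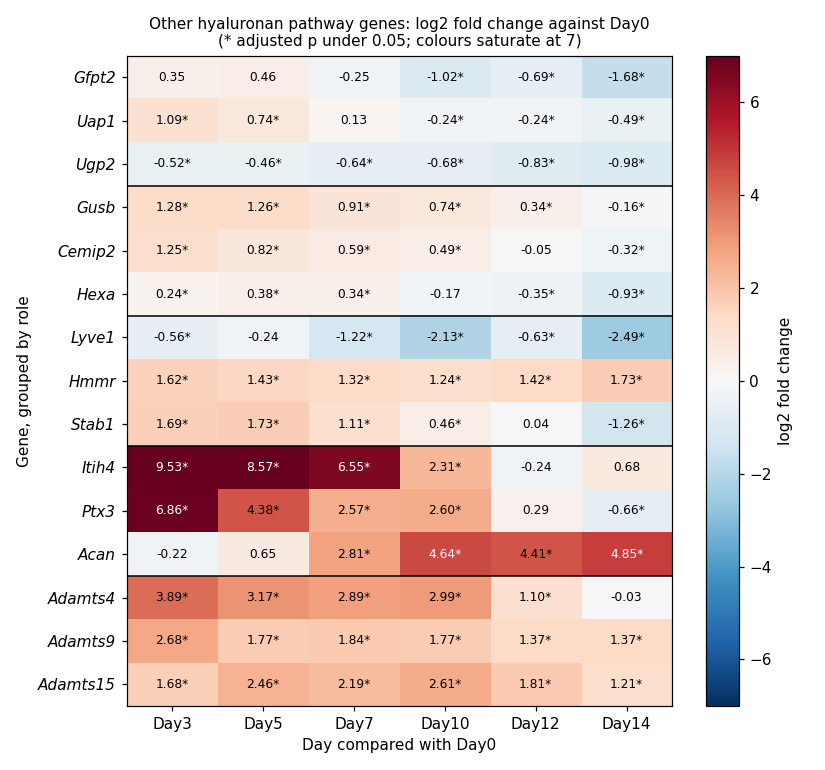
log2 fold change against Day0 (colour and number; an asterisk marks an adjusted p under 0.05) of 15 further pathway genes (rows, in 5 groups by role divided by lines) at each day (columns). Itih4 and Ptx3 lead at Day3 with 9.53 and 6.86, and Acan is high only from Day7 on.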

How the data were processed

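RNA was extracted with TRIzol and sequenced after library making with a VAHTS Universal V6 kit. Raw read counts for each gene, as the authors deposited them, were used beside the FPKM values that the authors deposited, which divide the same counts by gene length and library total (checked on 13709 genes). The submitters' processing notes name fastp, R 3.2.0 and mm10; aligner, counter, gene annotation and strand setting are not given in the sources used here. Groups came from the sample labels. Counts were fitted with edgeR 4.0.16 (R 4.3.3; TMM, filterByExpr, quasi-likelihood, two-sided) over all 28 libraries with day as the group (21 residual degrees of freedom), and p-values were adjusted by Benjamini-Hochberg over 18107 genes. All days share 1 estimate of spread, so the larger spread of Day0 is averaged with the others. Each standard error (SE) was derived from the test, as the absolute log2 fold change divided by the square root of its F statistic. Alternatives were DESeq2 1.42.0, limma 3.58.1 on log2(FPKM + 1) and log2(FPKM + 0.1), other scalings and filters, shares from raw counts in place of FPKM, the 8 libraries of a contrast alone, a replicate block, and each library left out. On simulated Day3 against Day0 counts edgeR recovered 149 of 150 genes changed at least 2-fold, with 8 false calls over the 17505 genes tested. The simulation changed only well-counted genes and gave all genes and days the same spread. It therefore cannot show how the calls fare with the larger spread of Day0. Counts between libraries of 1 day differed beyond sampling noise for every pair. Total counts were alike across libraries, so depth limits only genes with few reads. Members and gene lists were chosen with earlier results of these data known. Naming among the further pathway genes needed a mean FPKM of at least 1 at some day. In each group the 3 with the largest called change against Day0 were taken. Stab2, Itih1, Itih2, Itih3 and Itih5 were added beside their relatives whatever their level. For each of the 9 genes the 3 most correlated genes with a day mean of at least 10 CPM are named. Positions are from the GENCODE annotation of GRCm38.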

Additional observations from a re-analysis of the deposited data

Results flagged for a closer look

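In 9 of 63 sets of 4 libraries (9 genes at 7 days) the highest or lowest library stood apart from the other 3 by Dixon's criterion at the 95% level; chance alone gives about 3.1 of 63. The values are log2 CPM, and no explanation was tested. Of these, 3 concern Vcan in replicate 4: 7.75 at Day5 (others 8.36 to 8.49), 7.58 at Day7 (7.93 to 8.01) and 7.73 at Day12 (7.62 to 7.64). Cd44 was set apart at Day3 in replicate 2 (8.80, others 8.83), at Day5 in replicate 1 (8.45, others 8.36 to 8.37) and at Day10 in replicate 4 (7.58, others 7.70 to 7.72); these gaps are small because the other 3 libraries lay very close together. Cemip at Day14 was lower in replicate 4 (-0.17, others 0.96 to 1.14). Has2 at Day10 was higher in replicate 2 (3.35, others 3.02 to 3.07), and Tnfaip6 at Day12 was lower in replicate 3 (3.79, others 3.86 to 3.87). The Day0 libraries of Has2 and Cd44 were not set apart in this way, as they fell into pairs.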

How the results depend on the processing

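Of the 9 genes' folds, those that changed sign were Has2 at Day10 and Hyal1 at Day14 against Day3, neither called in any setting. Has2 at Day10 (-0.25) came to 0.048 and 0.20 with limma on log2(FPKM + 1) and log2(FPKM + 0.1), and leaving out single libraries moved it from -0.56 to 0.15. Hyal1 at Day14 against Day3 (-0.022) came to 8.8e-05 with DESeq2 size factors, 0.16 without composition scaling, 0.027 with no filter, 0.14 and 0.16 with limma, and from -0.049 to 0.053 with single libraries left out. The count of the 9 genes called higher at Day7 was 3 in place of 5 in the 8-library fit, the count called lower at Day12 ranged from 0 to 1 with single libraries left out, and the count called higher at Day14 against Day3 was 1 in place of 0 without composition scaling and with limma at both pseudocounts. Further pathway genes called lower were 6 in place of 10 at Day3 and 3 in place of 5 at Day5 with at least 10 counts in every library, which tests fewer genes. In the 8-library fit they were 6 at Day3, 4 in place of 11 at Day10 and 3 in place of 8 at Day12, and with limma 7 at Day10 and 3 at Day12. Single libraries left out moved these counts between 3 and 8 at Day7 (lowest without Day7 replicate 2), between 7 and 12 at Day10 and between 5 and 10 at Day12 (lowest without Day0 replicate 2 or 3). The cause of these moves was not tested. Shares taken from raw counts in place of FPKM moved beyond 1 SD in 36 of 42 cases. Replicate numbers did not pair the libraries: 0 of 4 same-numbered pairs correlated over 0.1 in any contrast. A fit with the replicate block moved none of 78 folds by more than 0.09, ended 0 calls and made 1 (Cd44 at Day7, 0.32), so members called higher at Day7 went from 5 to 6. Day0, the most variable day, limits every contrast against it. Through the estimate of spread shared by all days it also enters the errors of Day14 against Day3. Of the 9 genes Has2, which differed most between Day0 libraries, had the largest standard errors (0.31 to 0.33). Few reads also limit Has1 at Day14 and Cemip and Acan at Day0.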
